A study of Mus musculus with 3 samples.

Results

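The 10 imprinted genes described here are Igf2, H19, Dlk1, Meg3, Cdkn1c, Peg3, Plagl1, Grb10, Snrpn and Nnat, out of 37252 annotated genes on chromosomes 1 to 19 and X of the mouse genome (mm9, GENCODE M1). They were chosen by name, as genes known to be imprinted, and the rule uses no measured value. Igf2 and H19 lie side by side, as do Dlk1 and Meg3, so that the 10 genes occupy 8 loci. For each gene, every H3K4me1 enriched region that overlapped the gene or lay within 20 kb of any of its annotated transcription start sites (TSS) was collected, which gave 30 regions of the 65709 in the list. No region was counted for more than 1 of the 10 genes.

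The regions came from islets, the clusters of hormone-secreting cells of the pancreas, of mice of both sexes, given in the sample labels as strain CD1 aged 8 to 12 weeks and in the methods of the study as adult ICR aged 8 to 10 weeks. Isolated islets recovered for 4 to 6 hours and were then cultured for 4 days in RPMI with IFNγ at 1.6 ng/ml, IL-1β at 0.25 ng/ml and TNFα at 0.16 ng/ml, to ask how inflammatory cytokines change the chromatin at regulatory sequences. H3K4me1, the single methylation of lysine 4 of histone H3 that marks enhancers and the flanks of active promoters, was recovered by chromatin immunoprecipitation and sequenced (ChIP-seq) from islets of at least 10 mice, with the DNA of 4 immunoprecipitations pooled into 1 library. The list of this library holds positions only: there was no replicate library, no height or score per region and no sequencing depth, and H3K4me1 regions of untreated islets were not analysed here, so that the text describes cytokine exposed islets and tests no effect of the cytokines. The study merged the regions of treated and untreated islets and removed those of very low enrichment at some step, and whether the deposited list precedes these steps is not given in the sources used here. A gene without a region is therefore a gene with none in this list, at an unknown depth and with low regions possibly removed. Of the 10 islet genes used to check the label, among them Ins2, Pdx1 and Mafa, 9 had at least 1 region under the same rule, the glucagon gene Gcg being without one, as did 4 of 5 acinar and duct genes, 3 of 5 endothelial and stromal genes, 2 of 4 leukocyte genes and 2 of 3 genes of liver and glia (Apoa2 and Gfap had regions, Alb had none), beside 76.4% of all protein-coding genes; lists this short do not tell the islet label from the background.

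Imprinted genes are expressed mainly or only from the chromosome of a single parent, a choice that is set by DNA methylation laid down in the egg or sperm at imprinting control regions. Many of them regulate growth and metabolism, and several are expressed in the endocrine pancreas. In some clusters, such as that of Igf2 and H19, paternally and maternally expressed genes share enhancers. The DNA in the immunoprecipitate was not separated by parent, so that a region may come from 1 allele or from both.

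Of the 10 imprinted genes 8 had at least 1 region, or 80.0% with a 95% exact binomial interval of 44.4 to 97.5%, beside 76.4% of 22350 protein-coding genes and 80.2% of 3845 lincRNA and processed transcript genes under the same rule. H19 and Snrpn had none. At 5 of the 10 genes, Igf2, Dlk1, Cdkn1c, Grb10 and Nnat, a region covered at least 1 annotated TSS, beside 39.1% of the protein-coding genes; with the 5′-most TSS alone these were 3 genes, Dlk1, Cdkn1c and Nnat, beside 31.1% of protein-coding genes. The median was 3.50 regions per imprinted gene and 2 per protein-coding gene. The window of a gene, that is the gene joined with 20 kb on each side of each TSS, was covered by regions over a median of 7.88%, beside 6.50% for protein-coding genes. The share of imprinted genes with a region thus lay near the background. With regions of at least 1000 bp alone 6 of the 10 had one, a setting at which the protein-coding genes were not counted. The median number of regions of the imprinted genes fell to 2 within 10 kb of a TSS and to 1 for regions that overlap the gene. The protein-coding genes were not counted at these settings, so that whether the difference in medians holds there is not known. The imprinted genes were also longer, with a median of 21.3 kb beside 15.4 kb, and the part of length in the difference was not tested. Against the median of protein-coding genes of their own length class (2 regions under 20 kb, 3 from 20 to 100 kb and 7 above), 6 of the 10 had more regions and 4, H19, Meg3, Plagl1 and Snrpn, had fewer. The share of protein-coding genes above these medians was not counted, so that no excess is read from this. H19 and Meg3 are non-coding and were set against coding genes all the same. The spread among the 10 genes was wide: from 0 regions at H19 and Snrpn to 8 at Grb10, and from no cover to 47.4% of the window at Nnat. The binomial intervals cover counting error only, since neighbouring genes share sequence.

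**Figure D1:**
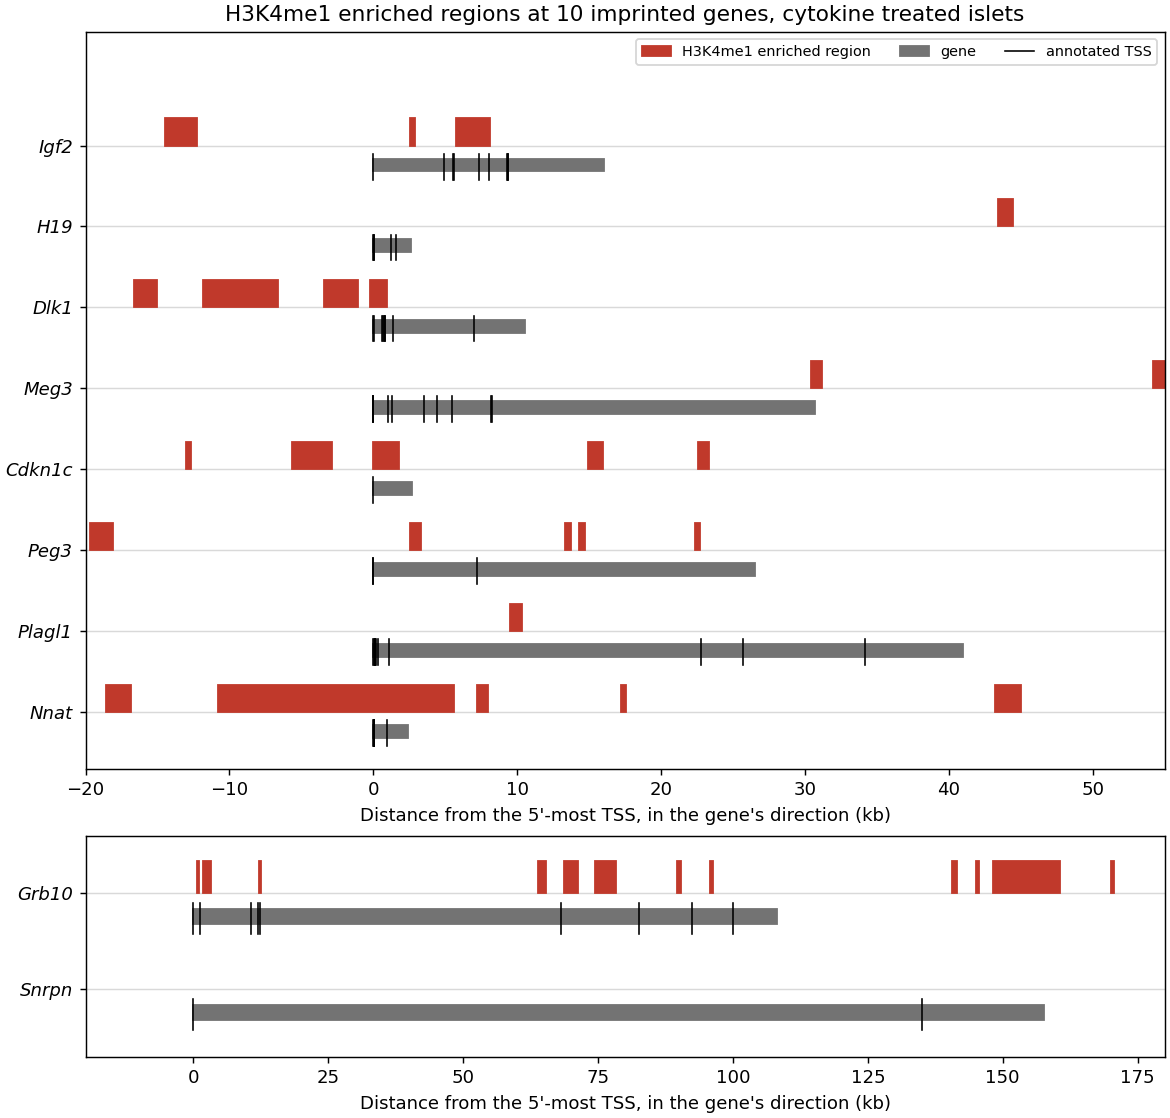
H3K4me1 enriched regions (red), gene bodies (grey) and annotated TSS (black ticks) at the 10 imprinted genes, by distance in kb from the 5′-most TSS in the direction of each gene; Grb10 and Snrpn have a wider axis, and regions beyond 20 kb of a TSS are drawn where they fall on the axis but were not counted. A single region covers all of Nnat, regions cluster upstream of Dlk1, and Snrpn has none.

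**Figure D2:**
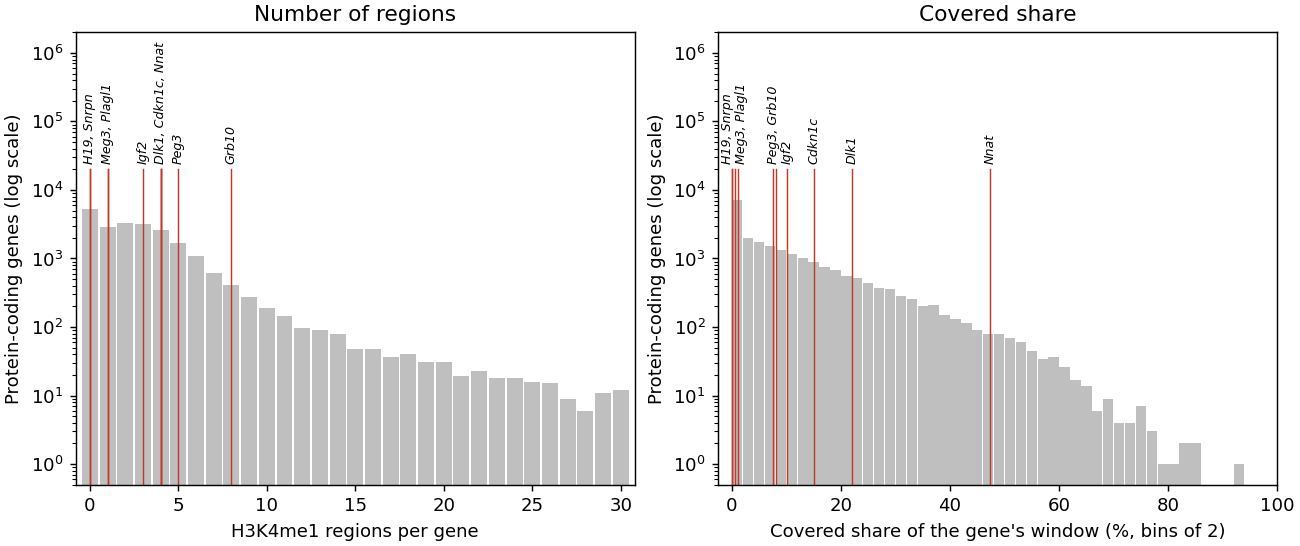
Number of protein-coding genes (grey bars, log scale) by number of regions per gene, shown up to 30, and by covered share of the gene's window in percent, with the value of each imprinted gene as a red line. H19 and Snrpn lie at 0 in both panels, Grb10 has the most regions of the 10 genes (8) and Nnat the highest covered share (47.4%).

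To show what sequence the regions did and did not cover, 7 start sites are given here, each with 160 bases before it and 20 bases from it onward, 5′ to 3′ on the strand of the gene, in mm9, with every CpG in capitals. The first 3 lay under a region and the last 4 did not. Start sites in CpG-rich sequence are those at which promoters commonly stay free of DNA methylation, apart from the methylated allele of an imprinted promoter.
Dlk1 start at 110691665 (chr12:110691505-110691684, plus strand), covered: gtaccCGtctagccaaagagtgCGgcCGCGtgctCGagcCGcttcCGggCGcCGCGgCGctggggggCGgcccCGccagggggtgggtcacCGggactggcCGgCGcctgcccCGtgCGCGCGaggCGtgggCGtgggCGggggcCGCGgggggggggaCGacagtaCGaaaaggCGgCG
Igf2 start at 149845394 (chr7:149845375-149845554, minus strand), covered: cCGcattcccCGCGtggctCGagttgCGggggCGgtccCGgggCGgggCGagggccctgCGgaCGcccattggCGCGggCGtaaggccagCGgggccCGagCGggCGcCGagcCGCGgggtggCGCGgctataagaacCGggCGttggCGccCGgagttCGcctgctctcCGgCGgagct
Grb10 start at 11926327 (chr11:11926308-11926487, minus strand), covered: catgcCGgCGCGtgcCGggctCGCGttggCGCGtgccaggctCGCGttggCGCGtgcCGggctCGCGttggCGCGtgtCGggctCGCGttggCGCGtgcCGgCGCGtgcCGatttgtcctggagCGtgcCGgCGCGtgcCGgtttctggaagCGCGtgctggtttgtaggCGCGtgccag
Grb10 start at 11937404 (chr11:11937385-11937564, minus strand), not covered: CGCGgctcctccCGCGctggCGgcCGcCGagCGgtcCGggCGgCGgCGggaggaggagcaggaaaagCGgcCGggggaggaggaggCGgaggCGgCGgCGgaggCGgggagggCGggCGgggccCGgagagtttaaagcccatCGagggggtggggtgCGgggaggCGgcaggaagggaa
Plagl1 start at 12810497 (chr10:12810337-12810516, plus strand), not covered: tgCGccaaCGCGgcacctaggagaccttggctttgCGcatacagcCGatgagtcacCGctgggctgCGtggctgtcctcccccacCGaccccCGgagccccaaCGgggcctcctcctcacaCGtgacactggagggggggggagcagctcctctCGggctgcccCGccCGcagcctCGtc
Peg3 start at 6683132 (chr7:6683113-6683292, minus strand), not covered: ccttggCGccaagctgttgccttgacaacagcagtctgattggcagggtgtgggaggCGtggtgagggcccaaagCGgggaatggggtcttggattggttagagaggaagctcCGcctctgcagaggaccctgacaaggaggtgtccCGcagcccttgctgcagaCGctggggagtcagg
Snrpn start at 67150042 (chr7:67150023-67150202, minus strand), not covered: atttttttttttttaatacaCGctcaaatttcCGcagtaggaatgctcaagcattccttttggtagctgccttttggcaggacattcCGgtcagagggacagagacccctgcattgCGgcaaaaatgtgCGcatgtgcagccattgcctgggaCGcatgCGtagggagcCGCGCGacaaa

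The 3 covered sequences hold 29 CpGs at Dlk1, 30 at Igf2 and 35 at Grb10, in the last case in a short repeated unit. The 4 that were not covered hold 25 at Grb10, 15 at Plagl1, 6 at Peg3 and 10 at Snrpn. The covered sites shown are among the richest in CpG: other covered sites held fewer, such as 7 each at Dlk1 110691033 and 110691059, so that CpG-rich and CpG-poor start sites occurred on both sides. Over the 10 genes, the 1001 bp around the 5′-most TSS reached an observed to expected CpG ratio of at least 0.6 at 4 genes, Cdkn1c (0.882), Nnat (0.866), Plagl1 (0.727) and Peg3 (0.603), or 40.0% beside 45.6% of protein-coding genes. Of these 4, the 5′-most TSS of Cdkn1c and Nnat was covered, and of the other 6 that of Dlk1 alone. Among protein-coding genes the 5′-most TSS was covered at 44.0% of those with a ratio of at least 0.6 and at 20.3% of the rest.

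Igf2 (ENSMUSG00000048583.9, chr7:149836673-149852721, minus strand) encodes insulin-like growth factor 2, a growth factor of the embryo that is expressed from the paternal allele, and its gene lies directly next to the insulin gene Ins2. It had 3 regions, and 34.4% of protein-coding genes had more. The first, chr7:149844601-149847000, was 2.4 kb wide, lay over UTR and intron sequence, covered 2 of the 9 annotated TSS of Igf2 and also held a TSS of the overlapping non-coding gene Igf2as. The second, chr7:149849801-149850200, lay in an intron, and both were rich in CpG, with observed to expected ratios of 0.742 and 0.976 beside a median of 0.226 over all regions. The third, chr7:149865001-149867200, lay 12.3 kb upstream of the 5′-most TSS and covered a TSS of Ins2, so that it cannot be assigned to Igf2 alone. Its CpG ratio was 0.153. The 3 start sites of Igf2 nearest to its 3′ end lay 1200 to 1230 bp beyond the 2.4 kb region, and 5 kb or 10.1% of the window was covered in all.

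H19 (ENSMUSG00000000031.9, chr7:149761434-149764048, minus strand), a long non-coding RNA expressed from the maternal allele, had no region. The closest one ended 41.8 kb from any of its 5 TSS, on the downstream side at chr7:149719601-149720600. Between H19 and Igf2, over 72.6 kb, no region was called either. The imprinting control region of this pair lies just upstream of H19 and is known to bind CTCF on the maternal allele, where it blocks Igf2 from the enhancers beyond H19. The core of the CTCF motif, CGNGGNGGC, was searched on both strands: in the upstream window of H19 it was found 3 times, 2168 to 3893 bp before the 5′-most TSS. These matches are shown with their flanks and the motif in capitals, because they mark where the control region is and how similar its repeats are.
H19, 2168 bp upstream, chr7:149766216-149766224: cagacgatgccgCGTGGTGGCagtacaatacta
H19, between the others, chr7:149766671-149766679: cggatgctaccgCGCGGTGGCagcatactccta
H19, 3893 bp upstream, chr7:149767941-149767949: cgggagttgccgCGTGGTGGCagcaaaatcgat

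All 3 matches are preceded by the same bases, ccg, and the closest region to any of them was 45.6 kb away. Another match, inside H19 at 273 bp from the start, was also outside regions. At Igf2, by contrast, 3 of 6 core matches lay in a region, all in the 2.4 kb region over the TSS. The core is common in enriched sequence: 13.1% of 65652 regions on assembled chromosomes held it, and 18% of the 1852 regions of that width, beside 7 of the 30 regions at imprinted genes. A match to these letters is not evidence of binding. Of words of 32 bp sampled in the window of H19, 208 of 208 occurred once in the genome. The part of read placement in the lack of regions here was not tested. The microRNA of H19, Mir675, lay 42369 bp from the closest region, and Mir483 within Igf2 3700 bp from it.

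Dlk1 (ENSMUSG00000040856.11, chr12:110691033-110701546) encodes a transmembrane relative of the Notch ligands that restrains differentiation, is expressed from the paternal allele and is known in the islet as a β-cell product. It had 4 regions over 22.1% of its window, a share that 16.1% of protein-coding genes exceeded. The region at the promoter, chr12:110690801-110692000, covered 7 of the 9 TSS and had a CpG ratio of 0.783. The other 3 lay upstream in intergenic sequence, 1.03, 6.63 and 15.0 kb before the gene, at chr12:110687601-110690000, chr12:110679201-110684400 and chr12:110674401-110676000. The middle of these was 5.20 kb wide, a width that 8.13% of all regions reached, and the 3 had CpG ratios of 0.224 to 0.301, close to the median of all regions. No region lay in Dlk1 beyond its start, and 65.6% of protein-coding genes had fewer regions than Dlk1.

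Meg3 (ENSMUSG00000021268.10, chr12:110779211-110809936) is a long non-coding RNA transcribed from the maternal allele of the same locus, upstream of a long cluster of microRNAs. None of its 10 TSS was covered, and the closest region to the 5′-most of them was 30.2 kb upstream. That region, chr12:110747401-110749000, was the only region in the 77.7 kb between Dlk1 and Meg3, where the control region of the locus is found, and lay too far from either gene to be counted. The single region counted at Meg3, chr12:110809601-110810400, reached 336 bp into an exon at its 3′ end and covered 0.662% of its window. It held TSS of Gm17639, a lincRNA gene, and of Mir673. The mature sequences of Mir673 are shown, with the seed (bases 2 to 8) in capitals, since they are what the region of Meg3 covers besides the end of Meg3; those of Mir770, which lies within Meg3 and 7606 bp from the closest region, are shown beside them. The sequences are those of RefSeq (GRCm38.p6).
miR-673-5p: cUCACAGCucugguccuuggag
miR-673-3p: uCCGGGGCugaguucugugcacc
miR-770-5p: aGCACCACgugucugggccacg
miR-770-3p: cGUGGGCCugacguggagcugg

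The 4 seeds differ. The 2 non-coding genes of the list, H19 and Meg3, thus had 1 region between them and no TSS covered, while the 8 protein-coding genes had 29 regions and 5 genes with a covered TSS. Among all lincRNA and processed transcript genes 28.7% had a covered TSS. Further along chromosome 12, the non-coding genes Rian and Mirg had 3 and 4 regions and no TSS covered, Rtl1 had 2 regions and Dio3 none. On the other side of Dlk1, Begain had 2 regions and its single TSS was covered.

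Cdkn1c (ENSMUSG00000037664.6, chr7:150644255-150646955, minus strand) encodes p57, an inhibitor of cyclin dependent kinases that holds cells out of division and is expressed from the maternal allele. Its single TSS was covered by chr7:150645201-150647000, a region of 1.80 kb over coding sequence, UTR and intron that held 192 CpGs and took in 65.0% of the short gene. Of the other 3 regions, chr7:150649801-150652600 lay 2.85 kb upstream of the TSS, and chr7:150659601-150660000 lay 12.6 kb upstream of it over a TSS of Slc22a18, an imprinted neighbour. The third, chr7:150631001-150632000, lay 15.0 kb downstream of the TSS and 12.3 kb beyond the end of the gene. The downstream region was also rich in CpG (ratio 0.899), with 3 matches to the CTCF core. The region 2.85 kb upstream held 2 matches and that over the TSS 1. Among all regions as wide as the downstream one 7.19% held the core. In the wider Kcnq1 cluster, to which Cdkn1c belongs, each of 10 annotated imprinted neighbours had a region and 9 had a covered TSS, the exception being Tspan32, beside 76.4% and 39.1% of protein-coding genes. Whether these neighbours are imprinted in islets was not measured. The covered share of their windows was highest at Tssc4 (60.1%) and Cd81 (43.2%) and lowest at Tspan32 (2.67%) and Kcnq1 (2.84%), beside a median of 6.50% for protein-coding genes.

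Grb10 (ENSMUSG00000020176.10, chr11:11830511-11938686, minus strand) encodes an adaptor protein that binds the insulin and IGF1 receptors and damps their signal; it is expressed from the maternal allele in most tissues and from the paternal allele in neurons. It had 8 regions, all within the gene and none outside it, and 5.92% of protein-coding genes had more; at 108.2 kb it is also a long gene, and the median of the 2399 protein-coding genes of at least 100 kb was 7 regions. Of the 8, 4 were at least 1000 bp wide. The regions formed 2 groups. At the 3′ end of the gene 5 regions between 11842401 and 11874800 lay in introns, 1 of them also over coding sequence, with CpG ratios of 0.121 to 0.243. At the 5′ end 3 regions lay near the start sites with CpG ratios of 0.783 to 1.35. Of these, chr11:11926201-11926600 covered the TSS at 11926327. The TSS at 11937404, where 4 annotated transcripts start and thus more than at any other TSS of Grb10, lay in a gap between 2 regions, 404 bp from chr11:11935401-11937000 and 197 bp from chr11:11937601-11938000. The 5′-most TSS lay 686 bp from the closest region. No region followed for 192.9 kb upstream of Grb10, whereas Ddc, the next imprinted gene downstream, had 10 regions over 35.8% of its window. Cobl, the imprinted gene beyond that upstream stretch, had 5 regions and 6 of its 10 TSS covered.

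Plagl1 (ENSMUSG00000019817.11, chr10:12810497-12851500), also called Zac1, encodes a zinc finger transcription factor that is expressed from the paternal allele and is linked to transient neonatal diabetes in humans. It had 1 region, chr10:12820001-12820800, in an intron 8.41 kb from the closest of its 12 TSS, and 1.08% of its window was covered. None of the TSS was covered, including 12810638, from which 14 annotated transcripts start, 9363 bp from the region. Upstream the next region was 75.9 kb away. Of protein-coding genes, 63.4% had more regions, and of those of 20 to 100 kb, the length class of Plagl1, 27.4% had 1 region or none. Phactr2, an imprinted gene downstream in the same cluster, had 8 regions and 3 of its 6 TSS covered.

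Peg3 (ENSMUSG00000002265.8, chr7:6656603-6683132, minus strand) encodes a large zinc finger protein that is expressed from the paternal allele. It had 5 regions, 4 in the gene and 1 at chr7:6701201-6702800, 18.1 kb upstream, and none covered a TSS. In the gene chr7:6660401-6660800 lay in coding sequence, chr7:6668401-6668800 over coding sequence and intron, chr7:6669401-6669800 in an intron and chr7:6679801-6680600 in an intron 2.53 kb from the main start. The first 3 of these were 400 bp wide, a width that 97.1% of all regions reached, and with regions of at least 1000 bp alone Peg3 kept 1, that upstream. Zim1, the imprinted gene downstream of Peg3, had 2 regions under the same rule, both of them also counted for Peg3.

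The intron that follows the start of Peg3 is known for a tandem array of binding sites of YY1, a zinc finger protein, within the control region of the locus. The motif CGCCATNTT, searched on both strands, was found 12 times in the window of Peg3, and 10 of these matches lay within 2.30 kb of that intron (6680012 to 6682308), all on the same strand. Of the 10, 3 lay in the 800 bp region and 7 outside it on the side of the TSS, the closest 75 bp from its edge. The 3 in the region and 3 of the others are shown with the motif in capitals, because the edge of the region runs through the array.
Peg3, in the region, chr7:6680012-6680020: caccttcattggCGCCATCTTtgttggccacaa
Peg3, in the region, chr7:6680134-6680142: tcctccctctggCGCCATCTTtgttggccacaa
Peg3, in the region, chr7:6680556-6680564: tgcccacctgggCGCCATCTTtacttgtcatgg
Peg3, outside, chr7:6680675-6680683: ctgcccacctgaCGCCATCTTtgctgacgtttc
Peg3, outside, chr7:6681162-6681170: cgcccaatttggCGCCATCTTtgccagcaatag
Peg3, outside, chr7:6682300-6682308: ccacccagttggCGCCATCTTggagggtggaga

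A region with 3 such matches was rare: 2.21% of all regions held the motif at all, 0.715% of the regions of 800 bp did, and 13 of 65652 held 3 or more, of which 1 was a region of 800 bp, that of Peg3. The motif was searched because the array at Peg3 was known, so that this rarity describes the array and is no test. No other region at the imprinted genes held a match. In Peg3 the words of 32 bp were unique at 233 of 236 positions. The edges of regions lie on a grid of 200 bp, so that the match 75 bp away from the edge is not resolved from the region.

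**Figure D3:**
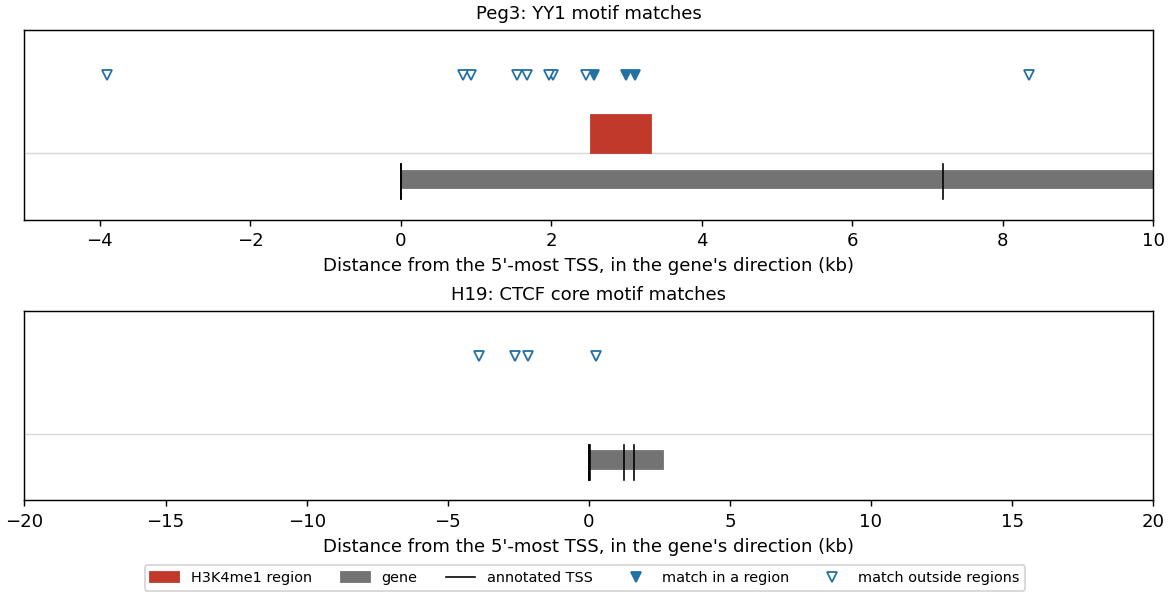
Matches to the YY1 motif at Peg3 and to the CTCF core motif at H19 (triangles, filled where the match lies in a region), with regions, genes and TSS, by distance in kb from the 5′-most TSS in the direction of the gene. At Peg3 3 of the 10 clustered matches lie in a region, and at H19 none of the 4 matches does.

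Nnat (ENSMUSG00000067786.9, chr2:157385814-157388258) encodes neuronatin, a small membrane protein of the endoplasmic reticulum that is abundant in neurons and in β-cells, where it aids insulin production; it is expressed from the paternal allele and lies in an intron of Blcap. It had 4 regions, and 1 of them, chr2:157375001-157391400, was 16.4 kb wide and covered the whole of Nnat and all 10 of its TSS. Only 0.575% of all regions were as wide or wider. The region also covered TSS of Blcap and of the microRNA gene AL672259.1, and so cannot be assigned to Nnat alone. The others were chr2:157393001-157393800 within Blcap, chr2:157403001-157403400, 16.3 kb downstream of the closest TSS of Nnat, and chr2:157367201-157369000, 16.8 kb upstream of its 5′-most TSS. In all 47.4% of the window of Nnat was covered, and 444 protein-coding genes (1.99%) had a higher share. The surrounding 1 Mb was also dense, with 72 regions, a number that 4.22% of protein-coding genes exceeded; their median was 39.0. The CpG ratio of the wide region was 0.298 over its whole width, beside 0.866 around the 5′-most TSS.

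Snrpn (ENSMUSG00000000948.9, chr7:67127388-67285105, minus strand) encodes SmN, a protein of the splicing machinery that is best known from neurons, and is expressed from the paternal allele in the cluster that is lost in Prader-Willi syndrome. It had no region in a window of 177.7 kb. Among the 2399 protein-coding genes of at least 100 kb 6.84% had none. The closest region ended 629.6 kb from the closer TSS, and Snrpn lay in a stretch of 2.41 Mb without any region (chr7:66520401-68927000), which only 26 of 65105 gaps between regions on the autosomes exceeded. The median gap was 10600 bp. The stretch holds 185 annotated genes, of which 5 are protein-coding. Of 889 words of 32 bp sampled in the window of Snrpn, 758 (85.3%) were unique, beside 94.1 to 100% at the other 9 genes; the rest of the stretch was not sampled. Of the whole stretch 2.08% is unknown sequence, and the part of read placement in the gap was not tested. There were 0 regions in the 1 Mb around Snrpn, as at 5.01% of protein-coding genes. Of its imprinted neighbours Ndn, Mkrn3 and Peg12 had no region either, Magel2 had 1, which covered its TSS, and Ube3a, whose gene reaches into the stretch from its other end, and Atp10a beyond it had 6 and 8.

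**Figure D4:**
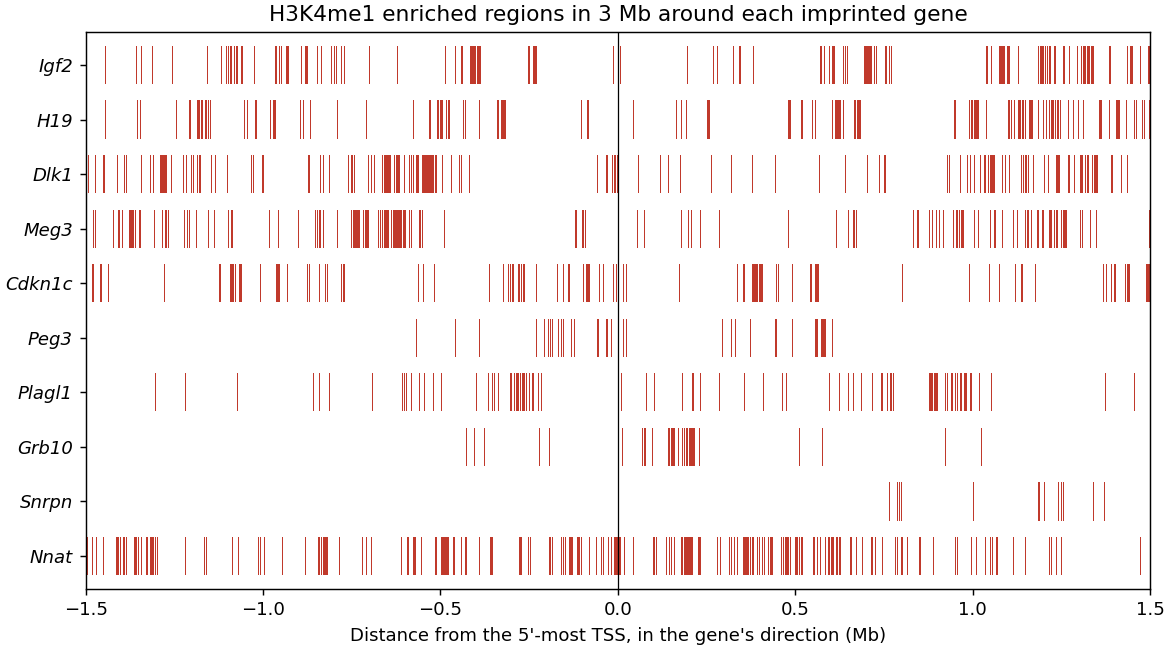
All H3K4me1 enriched regions (red) within 1.5 Mb on each side of the 5′-most TSS of each imprinted gene, by distance in Mb in the direction of the gene. Nnat has 72 regions in the central 1 Mb, Igf2, H19, Dlk1, Meg3, Cdkn1c, Peg3, Plagl1 and Grb10 have 22 to 41, and Snrpn has none.

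Across the 30 regions, 5 covered a TSS of the imprinted gene, 14 lay in the gene over no TSS, and 11 lay outside it, 8 upstream and 3 downstream. A TSS of another gene lay under 5 regions. The median width was 1100 bp (quartiles 450 and 2100 bp), beside 1200 bp (600 and 2400 bp) for all regions. Regions of up to 400 bp made up 8 of the 30 (26.7%) beside 15.0% of all, and regions of at least 3000 bp 3 of the 30 (10%) beside 20.2%. The median CpG ratio was 0.253 beside 0.226, and the median GC content 52.4% beside 45.9%. The paternally expressed genes, Igf2, Dlk1, Peg3, Plagl1, Snrpn and Nnat, had 17 regions, with a region at 5 of 6 genes and a covered TSS at 3. The maternally expressed genes, H19, Meg3, Cdkn1c and Grb10, had 13, with a region at 3 of 4 genes and a covered TSS at 2. With genes this few and single values for each, no difference between these groups was tested. The motif of ZFP57, TGCCGC, the protein that keeps methylation at control regions, was found in 10 of the 30 regions, 24 times in all, beside 21.3% of all regions. Of the 24, 10 lay at Nnat, 9 of them in its region of 16.4 kb. Among the 14 regions of that width 85.7% held the motif.

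For 61 other annotated imprinted genes, taken from a list of 71 names, 51 had at least 1 region (83.6%, exact binomial interval 71.9 to 91.8%) and 33 had a covered TSS (54.1%, 40.8 to 66.9%), with a median of 3 regions. They were listed from general knowledge, and whether each is imprinted in islets was not measured. These genes were longer than protein-coding genes, with a median of 38.4 kb beside 15.4 kb, a lower median share of their windows was covered (4.6% beside 6.50%), and 11.5% had all TSS covered, beside 18.2%. The interval of the share with a region included the 76.4% of protein-coding genes, and that of the share with a covered TSS lay above 39.1%, with the reservation that clustered genes are not independent and that the interval covers counting error only. With the 5′-most TSS alone the second share was 36.1%, beside 31.1% of protein-coding genes. The values of the 10 genes, 80% and 50%, fell within both intervals.

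**Figure D5:**
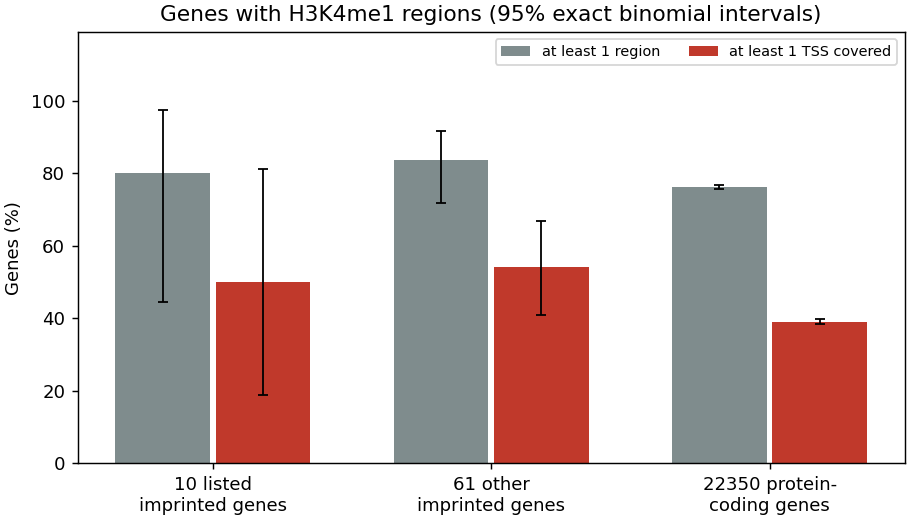
Percentage of genes with at least 1 region (grey bars) and with at least 1 TSS covered by a region (red bars) for the 10 imprinted genes, 61 other imprinted genes and 22350 protein-coding genes, with exact binomial bounds at 95% that account for counting error alone. The interval of the 10 genes for a covered TSS runs from 18.7 to 81.3% and includes both other sets.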

How the data were processed

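Per the labels and the methods of the study, the authors mapped the H3K4me1 ChIP-seq reads to mm9 with Bowtie2 (version 2.2.1 in the submitters' processing notes) and called enriched regions with ChromHMM, whose settings and version are not given in the sources used here. The deposited list holds chromosome, start and end of 65709 regions on a 200 bp grid, with no count, signal or score. The 2 RNA-seq samples of the series were not analysed here. Starts were raised by 1 so that positions count from 1.

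Genes and TSS came from GENCODE M1 and sequence from the genome of the same build, whose ends no region passed. A region was counted for a gene when at least 1 bp of it overlapped the gene or the 20 kb around any TSS. It covered a TSS when the TSS base lay in it. Motifs were searched as exact letters on both strands. The 32 bp words were taken every 200 bp and counted on both strands of the chromosomes. Exact binomial intervals are at 95%. The genes named are the 10 genes, imprinted genes of their clusters or sharing a region with them, other genes under their regions, and the 5 further imprinted genes with the most regions, besides marker genes that check the islet label and 7 imprinted genes that the closing section names after their values were seen. The rule for the 10 genes uses no measured value, but these genes, the other gene lists and the motifs were all chosen at a time when earlier results of these data were known. Alternative distances, widths, overlaps and TSS sets were tried. The steps were tested on simulated data: 500 of 500 planted gene windows, 300 of 300 planted motifs and 200 of 200 words were found as made. Scripts ran in Python 3.11.15 with pandas 2.3.3, numpy 2.4.6, matplotlib 3.10.9 and scipy 1.17.1.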

Additional observations from a re-analysis of the deposited data

How the results depend on the processing

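Of 63 alternative values of the summary results 53 stayed within 1.5 times of the value reported or, for shares of the other imprinted genes, within its binomial interval. Leaving out regions under 400 bp could not change any value of the 10 genes, since none of their regions is narrower. This count and that of single genes below include this setting, which says nothing about stability for the 10 genes. The median number of regions per imprinted gene was 2 with 10 kb in place of 20 kb from a TSS, 1 with only regions that overlap the gene and 1.5 once regions under 1000 bp were left out, which also brought the median covered share to 5.05%. The 30 regions became 47 with 50 kb, 19 with only regions that overlap the gene and 16 with regions of at least 1000 bp. With the 5′-most TSS alone 3 imprinted genes and 36.1% of the other imprinted genes had a covered TSS. With regions of at least 1000 bp 0 YY1 matches at Peg3 lay in a region, since the region there is 800 bp wide. The count of a single gene moved by more than 1.5 times in 17 of 90 alternatives: Meg3 had 0 regions with only regions within 20 kb of a TSS, with regions of at least 1000 bp or with midpoints, Plagl1 had 0 with regions of at least 1000 bp, H19 had 1 with 50 kb, and Snrpn had 0 throughout. With only regions that overlap the gene Dlk1, Cdkn1c and Nnat had 1 each; with 10 kb Cdkn1c and Nnat had 2 each; with regions of at least 1000 bp Peg3 had 1, Grb10 4 and Nnat 2; with 50 kb Dlk1 had 7, Nnat 8, Meg3 3 and Plagl1 2. A covered share by midpoints has no meaning and was not run. No paired analysis was possible because the list comes from a single library and no result from a test. For the same reason no replicate could be left out. No stricter calling threshold could be tried, since the list holds no score, and the depth is unknown.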

Other observations

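Among the 33 annotated imprinted genes of clusters that hold none of the 10 genes, 27 had at least 1 region and 16 a covered TSS, beside 76.4% and 39.1% of protein-coding genes. Those with the most regions were Trappc9 (24 regions over 10% of its window), Commd1 (12, 21.8%), Inpp5f (10, 43.5%), Ppp1r9a (10, 2.33%) and Airn (8, 23.3%). All of them except Inpp5f are longer than 100 kb, a length at which protein-coding genes had a median of 7 regions. Airn is the long non-coding RNA that silences Igf2r in cis, and its TSS was not covered, whereas 2 TSS of Igf2r were. Copg2, Klf14, Calcr, Nap1l5, Slc22a3 and Dcn had no region. These 6 and Igf2r were named after their values were seen.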
